A study of Homo sapiens with 12 samples.

Results

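The chromatin around MYC was described from every region of the deposited ATAC-seq count table that overlapped a 3 Mb window of chromosome 8 (hg38) holding MYC and PVT1. The window held 55 of the 30170 regions in the table, the first starting at 126506144 and the last ending at 129303645. They were taken by position, but the table holds only regions where a peak was called in some library of these data. A region was classed as a gene start region where it lay within 1 kb of a transcript start in GENCODE 44, which gave 14 regions, and as distal otherwise, which gave 41. ATAC-seq counts the DNA fragments cut by a transposase that reaches open chromatin, so a value below is a level of accessibility and not of RNA.

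MYC encodes a helix-loop-helix leucine zipper protein that binds DNA together with MAX and drives genes of ribosome production, metabolism and cell division. It stands almost alone among protein-coding genes, in a stretch of long non-coding RNAs such as PCAT1, CASC19, CCAT2 and PVT1, and enhancers scattered through that stretch loop to its promoter in different tissues. In the intestine MYC is a classic target of Wnt signalling through beta-catenin and TCF proteins, and its expression falls as cells leave the crypt and differentiate. EHF is an epithelial transcription factor of the ETS family and CDX1 is a homeobox factor of the intestinal epithelium.

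All libraries came from HCT116, an established human colorectal carcinoma line. HCT116 EV cells carried the empty pcDNA3.1 vector, HCT116 EHF cells an EHF plasmid, HCT116 CDX1 cells a CDX1 retrovirus, and HCT116 EHF+CDX1 cells both. Per the study's methods EHF and its empty vector were selected as geneticin-resistant clones, CDX1 cells were sorted as a pool by GFP, and the double line was made from the CDX1 line and again selected as resistant clones, so that a line's history cannot be told apart from the factor it expresses. Each group had 3 libraries, 12 in all, and the sources used here do not say that they came from separate cultures, so p-values measure only the spread between these libraries. In a bulk library, fewer cells with an open site and less opening per cell cannot be told apart.

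The libraries were shallow. Their totals ran from 567366 to 2443334 counts, but regions matching mitochondrial DNA took 65.0 to 73.8% of each EV library and 14.5 to 37.2% of the others, and the exons of the introduced EHF and CDX1 took 9.99 to 78.4% of each library other than EV. None of the 55 regions belonged to either kind. CPM below means counts scaled to a common library total taken outside those regions. The counts outside them numbered 148299 to 458392 in 11 libraries and 912616 in EHF+CDX1 replicate 2. A count of 3, used as the floor, was worth 9.63 to 20.2 CPM in the EV libraries and 3.29 CPM in EHF+CDX1 replicate 2. Of 5 epithelial marker genes EPCAM, KRT8, KRT18 and KRT19 had a region at their start and CDH1 had no region listed here. Of 6 markers of blood, endothelium and fibroblasts only COL1A1 and COL1A2 had one.

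The window was not empty of open chromatin. It held 18.3 regions per Mb, against 9.77 over all chromosomes and 16.9 over the rest of the long arm of chromosome 8. It was poor in gene starts: 25.5% of its regions were gene start regions, against 32.8% on the rest of the arm and 46.3% of all other regions. GENCODE 44 places 40 genes in the window, of which 3 are protein-coding (LRATD2, POU5F1B and MYC) and 19 are long non-coding RNAs. Introns held 36 of the regions, exons 14, and 5 were intergenic. PCAT1, a long non-coding RNA whose longest transcripts cross the upstream part of the window, contained 16 of them, PVT1 8, CCDC26 6 and LINC00824 3. Upstream of MYC by more than 1 kb lay 30 regions and downstream 22, with 10 of the 55 within 100 kb of the MYC start and 29 within 500 kb. The longest stretch without a region ran for 246 kb, from 126558652 just beyond LRATD2 to 126805084 in PCAT1. The gene start regions had a median GC content of 55.6%, against 65.8% at other gene starts, while the distal ones had 48.4%, against 49.0% in other distal regions.

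In level the window's gene start regions stood below others, and its distal regions were close to others. The median over the 14 gene start regions of the mean CPM over 12 libraries was 21.8. Other gene starts gave 27.3, and those on the rest of the arm 31.5. The median over the 41 distal regions was 17.9, against 16.2 in other distal regions and 17.5 in those on the rest of the arm. The highest of all was not at MYC but at LRATD2, a gene of the far upstream end, where chr8:126558354-126558652 reached a mean of 93.0 CPM. It was followed by an intron of LINC00824 (chr8:128554858-128555238, 65.8 CPM), an exon of the long non-coding gene ENSG00000286010 (chr8:127668577-127669032, 63.1 CPM), a neighbouring start shared by LRATD2 and PCAT1 (chr8:126557828-126558069, 50.5 CPM) and a region just past the 3′ end of MYC (chr8:127743073-127743280, 44.9 CPM). These values are per region and not per base, and the 5 regions were among the longer ones, at 207 to 455 bp against a median of 150 bp. The plot of levels by distance shows these peaks in all 4 groups.

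**Figure D1:**
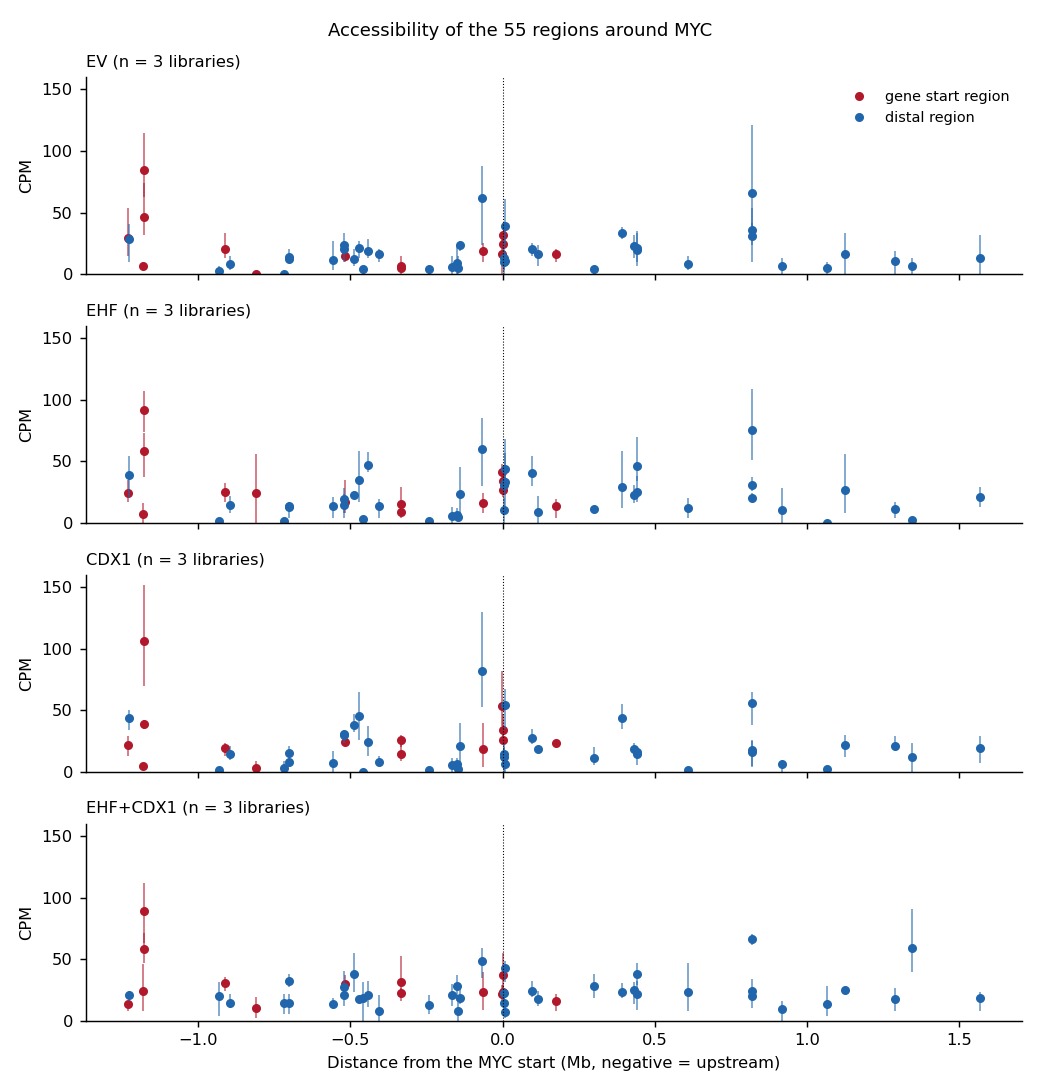
Accessibility of the 55 regions in CPM against distance from the MYC start in Mb, one panel per group, with points for the mean of 3 libraries, lines from the lowest to the highest library, red for gene start regions and blue for distal ones. The tallest points sit 1.18 Mb upstream at LRATD2 in every group, and the region 1.34 Mb downstream stands high in the EHF+CDX1 panel at 59.4 CPM.

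MYC had 3 regions within 1 kb of its starts. The one over its first exon, chr8:127736125-127736295, had counts of 7, 9 and 5 in the EV libraries, 9, 18 and 6 with EHF, 11, 10 and 5 with CDX1 and 14, 50 and 5 with both. Scaled, this was 32.1 ± 2.76, 34.1 ± 7.29, 33.6 ± 11.6 and 37.3 ± 17.5 CPM (mean ± SD, n = 3 each), with all 4 groups overlapping. Its log2 fold change of EHF+CDX1 against EV was 0.27 ± 0.49 (SE), with a 95% interval of -0.68 to 1.23 and an adjusted p of 0.80 by edgeR's quasi-likelihood test. The sign turned to -0.23 without replicate 2 of every group, so no direction can be given for it.

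The second MYC region, chr8:127735796-127735946, also in exonic sequence of MYC, held 7, 4 and 4 counts in EV, 7, 14 and 5 with EHF, 7, 10 and 4 with CDX1 and 11, 16 and 6 with both. The group means lay between 23.5 and 27.0 CPM, and EHF+CDX1 differed from EV by a log2 fold change of -0.10 ± 0.58 (95% interval -1.24 to 1.04). Among all gene start regions these 2 ranked at the 63.9 and 44.7 percentile of mean CPM, and the third MYC region at 62.4. Each was ranked as a region of its own, so these ranks do not place the MYC start as a whole.

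The third, chr8:127735246-127735409, lies upstream of the MYC start, in an intron of the antisense neighbour CASC11. Its counts were 6, 6 and 0 in EV, 10, 22 and 8 with EHF, 10, 15 and 14 with CDX1 and 11, 19 and 4 with both. The CPM was 16.0 ± 14.7 in EV, 41.2 ± 6.85 with EHF, 53.9 ± 24.1 with CDX1 and 22.0 ± 6.85 with both, so that both single-factor lines stood higher than EV and the double line stood close to EV. None of these differences passed the test. Against EV the log2 fold change was 1.11 ± 0.57 in EHF (adjusted p = 0.96), 1.42 ± 0.57 in CDX1 (adjusted p = 1.0) and 0.27 ± 0.59 in EHF+CDX1 (adjusted p = 0.84). The interaction, which asks whether both factors together differ from the sum of each alone, was -2.26 ± 0.75 on the log2 scale with an adjusted p of 0.23.

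Summed over the 3 MYC start regions, the EV libraries held 96.1, 61.0 and 60.7 CPM, the EHF libraries 107, 118 and 81.4, the CDX1 libraries 119, 87.5 and 134, and the EHF+CDX1 libraries 95.9, 93.1 and 59.1. In order of mean this is CDX1 at 114 ± 23.7, EHF at 102 ± 18.7, EHF+CDX1 at 82.7 ± 20.5 and EV at 72.6 ± 20.4 (SD, n = 3). Each group's range overlapped that of its neighbours in this order, and the whole order rested on 9 to 85 counts a library. A sum over chosen regions was not tested.

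The start of PVT1, a long non-coding RNA gene whose promoter lies close behind MYC and which is often gained together with it in tumours, was covered less well. The nearest region to its 5′-most annotated start at 127794526 was an intronic one 37.2 kb away, chr8:127831679-127831832. A region at an alternative PVT1 start, chr8:127911434-127911584, had counts of 4, 3 and 3 in EV, 1, 9 and 4 with EHF, 5, 10 and 4 with CDX1 and 7, 20 and 2 with both. Its means were 16.4 ± 5.85, 13.6 ± 8.33, 23.2 ± 1.87 and 16.1 ± 7.35 CPM in the same order (SD, n = 3). The log2 fold change of EHF+CDX1 against EV was 0.11 ± 0.68 with an adjusted p of 0.95, and the 95% interval of -1.23 to 1.46 leaves room for a change of more than 2-fold either way.

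Around MYC itself, a cluster of 4 distal regions covered its last exon and the sequence just behind it. They lay 5.8 to 7.4 kb downstream of the MYC start. The nearest of them, chr8:127741828-127741978, was weak, with 4, 1 and 1 counts in EV, 5, 5 and 0 with EHF, 3, 8 and 2 with CDX1 and 7, 18 and 1 with both. The strongest, chr8:127743073-127743280, held 5, 10 and 9 counts in EV, 8, 26 and 10 with EHF, 14, 27 and 6 with CDX1 and 18, 44 and 8 with both. Its level was 38.9 ± 19.3 CPM in EV and 42.6 ± 9.57 CPM in EHF+CDX1, so its EV mean was above that of each MYC start region, and the lines overlapped. The 4 regions together gave 72.3 ± 20.03 CPM in EV, 119 ± 24.2 with EHF, 87.3 ± 36.6 with CDX1 and 86.5 ± 20.6 with both. The 3 EHF libraries, at 99.1, 111 and 146 CPM, all stood above the EV libraries, at 91.3, 51.4 and 74.2, and no region of the cluster passed the test in that line. With all counts of a library as the total, the EHF and EV libraries overlapped.

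Upstream, the nearest member beyond 1 kb was a start of ENSG00000286010, chr8:127670940-127671090, 64.9 kb away, with 2, 8 and 3 counts in EV, 6, 7 and 2 with EHF, 1, 16 and 2 with CDX1 and 8, 8 and 10 with both. Beside it, the strong region in an exon of the same gene (chr8:127668577-127669032) held 5, 23 and 13 counts in EV, 16, 39 and 7 with EHF, 15, 52 and 9 with CDX1 and 19, 32 and 15 with both. The log2 fold change of EHF+CDX1 against EV was -0.45 ± 0.41 there, with an adjusted p of 0.58, and 0.03 ± 0.72 at the start, with an adjusted p of 0.99.

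The 8 regions inside PVT1 summed to 154 ± 31.0 CPM in EV, 199 ± 45.3 with EHF, 173 ± 14.1 with CDX1 and 193 ± 17.4 with both (SD, n = 3), and the groups overlapped. A pair of them belonged to the largest differences among regions averaging at least 10 counts and had opposite signs. The intronic region chr8:128176926-128177095 had 2, 11 and 2 counts in EV and 11, 34 and 12 in EHF+CDX1, a log2 fold change of 0.73 ± 0.54 (adjusted p = 0.47), while chr8:128127937-128128104 had 6, 12 and 5 counts in EV and 7, 28 and 5 in EHF+CDX1, a log2 fold change of -0.54 ± 0.51 (adjusted p = 0.59). Neither passed the test.

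Over the whole window the lines given a factor had slightly higher sums than EV. The 14 gene start regions summed to 293, 260 and 411 CPM in the EV libraries, 396, 425 and 390 with EHF, 379, 380 and 483 with CDX1 and 440, 506 and 351 with both. EV replicate 3, at 411, reached into the range of each other group. The 41 distal regions summed to 653, 680.5 and 802 CPM in EV, 785, 1054 and 776 with EHF, 804, 878 and 716 with CDX1 and 858, 1194 and 823 with both, and here all 3 EHF+CDX1 libraries stood above all 3 EV libraries. As a log2 ratio of means to EV, gene starts and distal regions each gave 0.43 in EHF+CDX1, against 0.33 and 0.29 in EHF and 0.37 and 0.17 in CDX1. Outside the window, the exons and the mitochondrial matches, the same ratios at gene starts and distal regions were 0.15 and -0.14 in EHF+CDX1, 0.21 and -0.20 in EHF and 0.14 and -0.13 in CDX1. Those gene start and distal sums make up nearly the whole total used for scaling, so a rise in one forces a fall in the other. The difference between the window and these regions was not tested. With all counts of a library as the total, the window's EHF and CDX1 ratios turned negative, at -0.30 to -0.29 in EHF and -0.54 to -0.46 in CDX1. Their direction thus depends on how the mitochondrial and introduced counts are handled. The distal counts in EHF+CDX1 were 322, 1090 and 209 of 2137259, 1691958 and 1543391 in all. In EV they were 136, 212 and 119 of 595791, 1033248 and 567366. As shares of these totals, EHF+CDX1 replicates 1 and 3 stood below each EV library and only replicate 2 above. The plot of summed accessibility per library shows the overlap of the groups.

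**Figure D2:**
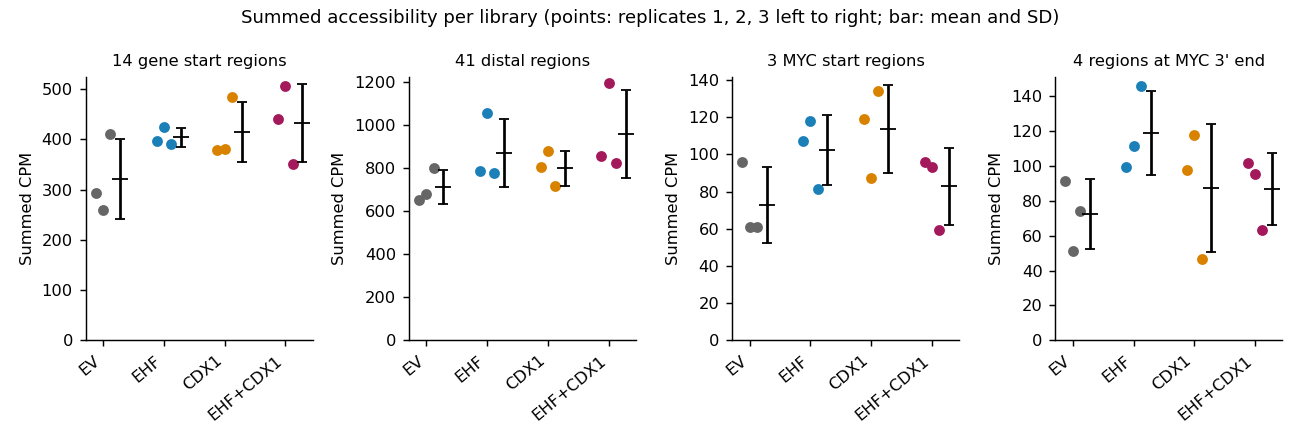
Summed CPM per library over the 14 gene start regions, the 41 distal regions, the 3 MYC start regions and the 4 regions at the 3′ end of MYC, with a point per library (replicates 1 to 3 from left to right) and the mean with SD beside them. The groups overlap in each panel except that the 3 EHF+CDX1 libraries lie above the 3 EV libraries for the distal regions and the 3 EHF libraries above them at the MYC 3′ end. Neither exception holds with all counts of a library as the total.

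Region by region, the question for each single-factor line was which sites differed from the empty vector line. In EHF against EV no member was called at an adjusted p under 0.05 by edgeR, against a background of 0.00995% of the 30154 regions tested, and 2 of the 55 had an unadjusted p under 0.05 (3.64%, against 4.96% of all regions). DESeq2 called 0 as well. In CDX1 against EV the members called were 0, the background was 0%, 3 members had an unadjusted p under 0.05 (5.45%, against 3.81% of all regions), and DESeq2 called 0. The median log2 fold change of the members was 0.07 in EHF and 0.04 in CDX1, against 0.01 and 0.00 over all regions. Libraries that did not overlap were more common in one direction: 5 members in EHF and 7 in CDX1 had all 3 libraries above all 3 EV libraries, with none below. Over all regions that share was 7.96% above and 2.74% below in EHF and 6.2% above and 2.8% below in CDX1, against 9.09% and 12.7% of the members above. These shares use CPM, and the direction of the window's summed ratios in both lines depended on the total used for scaling.

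In EHF+CDX1 against EV, 2 of the 55 members were called, both higher, against a background of 2.57% (1.79% called higher and 0.779% lower). A share of 3.64% of the members is near what the whole table gave. An unadjusted p under 0.05 was seen in 11 of the 55 members, against 19.0% of all regions. DESeq2 called 0 but gave no adjusted p for 54 of the 55 members in this comparison, both called ones included. The log2 fold change was above 0 in 41 members, or 74.5%, against 57.6% of all regions, with a median of 0.39 against 0.18 over all regions and 0.11 over the rest of the arm. The median was 0.76 in the 30 upstream members and 0.20 in the 22 downstream ones, with 76.7% and 72.7% of them above 0. These medians include the 18 members with at most 3 counts in every EV library, whose fold changes rest on few counts. The difference between upstream and downstream members was not tested. In 9 members (16.4%) all 3 EHF+CDX1 libraries stood above all 3 EV libraries, against 15.6% of all regions, and in 0 members did they all stand below, against 6.36%. The median SE of a member's log2 fold change was 0.66, so a difference of that size could not be told from 0 in a typical member.

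**Figure D3:**
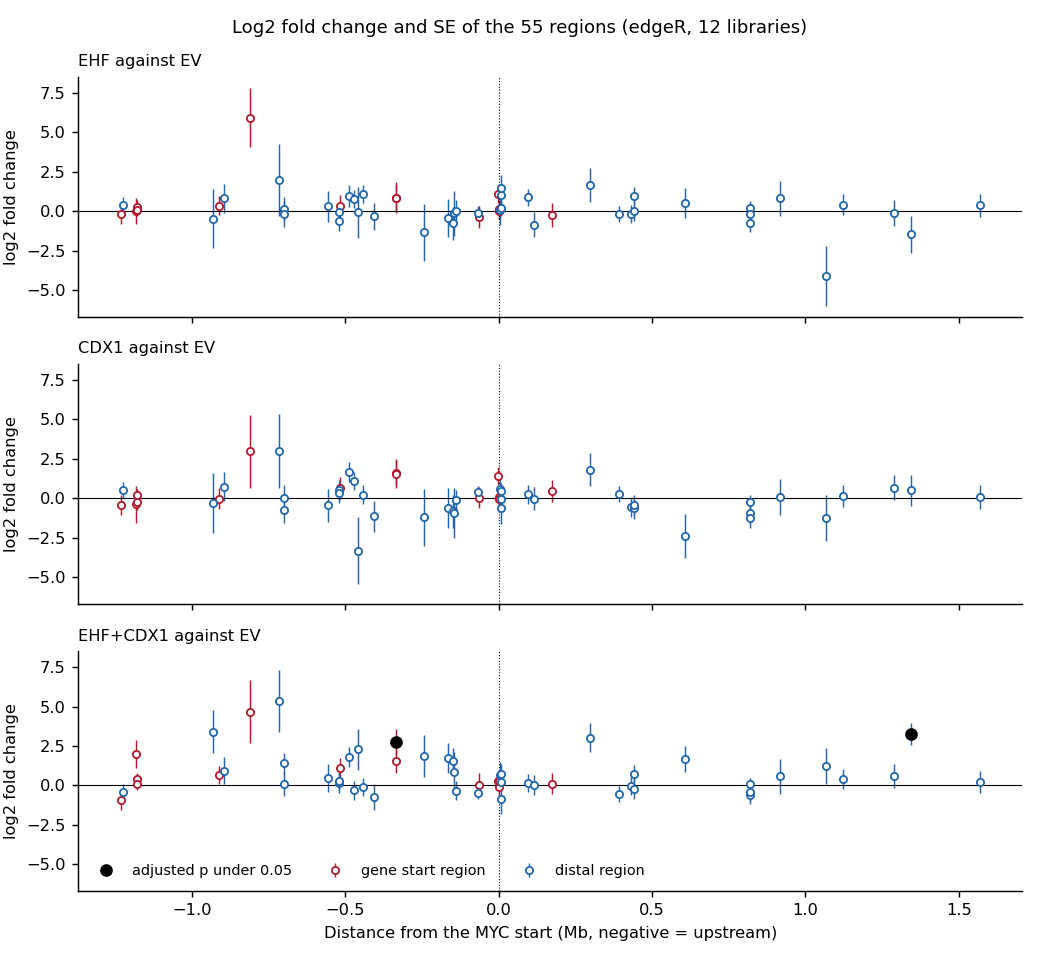
Log2 fold change with SE of each of the 55 regions against distance from the MYC start in Mb, for EHF, CDX1 and EHF+CDX1 against EV, with red for gene start regions, blue for distal ones and filled black for an adjusted p under 0.05. Filled points appear in the EHF+CDX1 panel alone, 0.33 Mb upstream and 1.34 Mb downstream, and in that panel the MYC start regions lie between -0.10 and 0.27.

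The clearest change in the window lay 1.34 Mb downstream of MYC in an intron of CCDC26, a long non-coding RNA gene, at chr8:129079299-129079468. It had counts of 0, 2 and 2 in EV, 1, 1 and 0 with EHF, 3, 0 and 4 with CDX1 and 18, 83 and 10 with both. Its level was 6.64 ± 6.75 CPM in EV, 2.10 ± 2.07 with EHF, 12.02 ± 11.7 with CDX1 and 59.4 ± 27.6 with both (SD, n = 3), and the lowest EHF+CDX1 library stood above the highest of the other 9. At or near the floor in every library without both factors, it ranked among the taller regions of the window in the double line.

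By edgeR this region was higher in EHF+CDX1 than in EV by a log2 fold change of 3.23 ± 0.70 (adjusted p = 0.0035), than in EHF by 4.70 ± 0.77 (adjusted p = 9.5e-06) and than in CDX1 by 2.72 ± 0.63 (adjusted p = 0.0054). As a ratio of pooled counts, 111 against 4, it was 12.02 times the EV level, with a 95% counting interval of 4.57 to 44.9. Each EV library was under the floor of 3 counts, and with 3 counts set in each of them the ratio was 5.34. Intervals and floors of this kind cover counting error only. The interaction was 4.19 ± 1.42 on the log2 scale with an adjusted p of 0.24, so opening beyond the sum of both single lines did not pass the test. Without EHF+CDX1 replicate 2, which supplied 83 of the 111 counts, the log2 fold change was 2.77 against EV (adjusted p = 0.18) and 2.21 against CDX1 (adjusted p = 0.27), while the call against EHF was kept. Its nearest neighbours in the same gene, chr8:129024038-129024188 and chr8:129303495-129303645, had log2 fold changes of 0.58 ± 0.75 and 0.21 ± 0.69 against EV.

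The other call against EV was at CCAT2, a long non-coding RNA gene upstream of MYC known from colorectal cancer, in its exonic sequence at chr8:127401116-127401266, 335 kb from the MYC start. The region had counts of 1, 1 and 1 in EV, 1, 6 and 2 with EHF, 2, 9 and 2 with CDX1 and 10, 48 and 4 with both. The level rose from 4.92 ± 1.77 CPM in EV to 31.7 ± 18.9 in EHF+CDX1, with 8.60 ± 4.48 in EHF and 14.2 ± 7.35 in CDX1. The log2 fold change against EV was 2.76 ± 0.81 (adjusted p = 0.041), and the ratio of pooled counts, 62 against 3, was 8.95 with a 95% counting interval of 2.93 to 44.6. Each EV library was under the floor here too, and with 3 counts set in each the ratio was 2.98. Without EHF+CDX1 replicate 2 the log2 fold change was 2.15 and the adjusted p 0.37. The call was also lost without EHF+CDX1 replicate 1 and without each EV library in turn. Its neighbour in the same gene, chr8:127400909-127401059, had 3, 2 and 0 counts in EV and 7, 24 and 6 in EHF+CDX1, a log2 fold change of 1.53 ± 0.77 with an adjusted p of 0.26.

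Adding CDX1 to EHF, that is EHF+CDX1 against EHF, gave 2 called members, both higher, against a background of 4.35% (3.65% called higher), and 15 with an unadjusted p under 0.05 (27.3%, against 19.6% of all regions). DESeq2 called 1 and gave no adjusted p for 6 members. Besides the CCDC26 region above, the call was a second CCDC26 intron, chr8:128801666-128801816, 1.07 Mb downstream of MYC. It held 2, 2 and 0 counts in EV, 0 in each EHF library, 1, 1 and 0 in CDX1 and 3, 26 and 1 in EHF+CDX1. The adjusted p was 0.043. All but 4 of its 30 counts came from replicate 2, the other EHF+CDX1 libraries were at or under the floor of 3 counts, so no fold is given, and without that library the adjusted p was 0.41.

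Adding EHF to CDX1, that is EHF+CDX1 against CDX1, also gave 2 called members, both higher, against a background of 2.6% (2.06% called higher), and 14 with an unadjusted p under 0.05 (25.5%, against 17.5% of all regions). DESeq2 called 0 and gave no adjusted p for 6 members. Besides the first CCDC26 region, the call was an intron of ENSG00000286034 at chr8:128344008-128344158, 608 kb downstream of MYC. It held 3, 1 and 1 counts in EV, 5, 5 and 1 with EHF, 1, 0 and 0 with CDX1 and 6, 43 and 2 with both. The log2 fold change was 4.06 ± 1.08 against CDX1 (adjusted p = 0.019) and 1.66 ± 0.84 against EV (adjusted p = 0.26). Without EHF+CDX1 replicate 2 the first was 2.98 with an adjusted p of 0.40. No member was called lower in any of these comparisons, and 0 were called for the interaction, against a background of 0.123%, with 7 at an unadjusted p under 0.05 (12.7%, against 9.88% of all regions) and 0 by DESeq2.

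**Figure D4:**
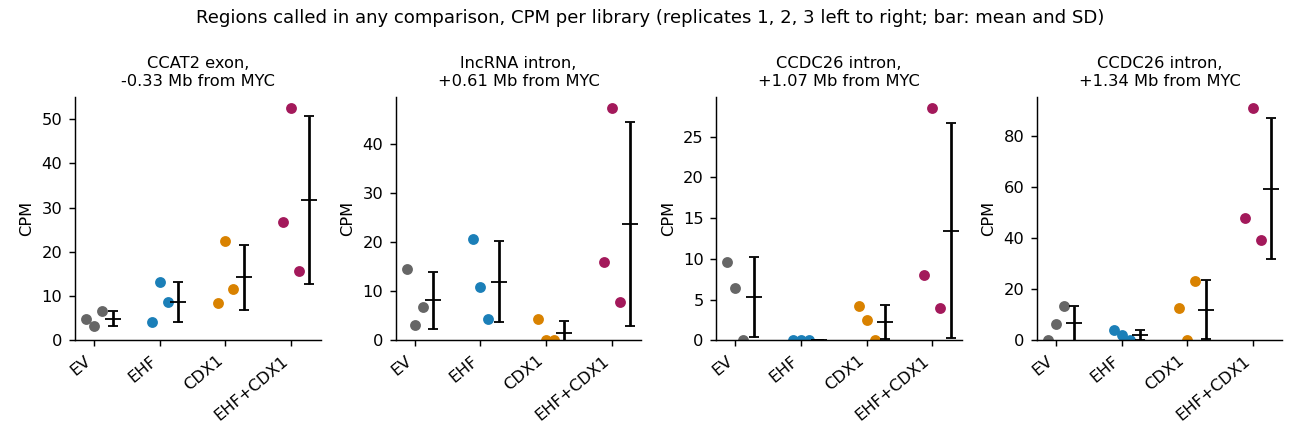
CPM per library of the 4 regions called in any comparison, with a point per library (replicates 1 to 3 from left to right) and the mean with SD, on axes that start at 0. In each panel EHF+CDX1 replicate 2 is the highest of the 12 libraries, and in the CCDC26 region 1.34 Mb downstream the other EHF+CDX1 libraries also stand above the rest.

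Among other regions averaging at least 10 counts, the largest difference from EV did not pass the test. It was seen in more than 1 line. At chr8:127247468-127247618, in an intron of PCAT1 488 kb upstream of MYC, the counts were 2, 2 and 3 in EV, 5, 12 and 5 with EHF, 11, 13 and 6 with CDX1 and 13, 50 and 6 with both. The level was 12.1 ± 7.23 CPM in EV, 22.8 ± 2.99 with EHF, 38.1 ± 7.63 with CDX1 and 37.7 ± 15.8 with both. Each EV library was at or under the floor of 3 counts, and replicate 2 supplied 50 of the 69 counts of EHF+CDX1. With 3 counts set in each EV library, the EHF+CDX1 to EV ratio of pooled counts was 3.32, against 4.27 as counted. The log2 fold change against EV was 1.81 ± 0.61 in EHF+CDX1 (adjusted p = 0.083) and 1.68 ± 0.65 in CDX1 (adjusted p = 1.0), and EHF+CDX1 and CDX1 differed by 0.13 ± 0.47. A PVT1 intron at chr8:128035228-128035378, singled out after its values were seen, had 1, 0 and 1 counts in EV, 3, 6 and 2 with EHF, 2, 8 and 1 with CDX1 and 7, 35 and 7 with both, with an adjusted p of 0.05 against EV that fell just short of a call.

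None of the 5 strongest regions of the window was called in any comparison. At the LRATD2 start chr8:126558354-126558652 the counts were 13, 24 and 17 in EV, 18, 49 and 22 with EHF, 23, 28 and 26 with CDX1 and 42, 84 and 16 with both, a log2 fold change against EV of 0.07 ± 0.37 (95% interval -0.66 to 0.79). At the adjoining start chr8:126557828-126558069 it was 0.39 ± 0.43, with 7, 10 and 11 counts in EV and 21, 65 and 12 in EHF+CDX1. In the LINC00824 intron chr8:128554858-128555238 the counts were 7, 13 and 18 in EV, 16, 50 and 12 with EHF, 9, 26 and 11 with CDX1 and 23, 64 and 17 with both, with a log2 fold change of 0.07 ± 0.39. At chr8:126558354-126558652 the interval excludes a 2-fold change in either direction.

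Many regions of the window were at the limit of detection in the EV line. In 18 of the 55, or 32.7% against 24.5% of all regions tested, no EV library had more than 3 counts, and 5 of those were gene start regions and 13 distal. All 18 passed the floor in EHF+CDX1 replicate 2, with 7 to 83 counts, but 11 did so in replicate 1, 10 in replicate 3 and 6 in all 3 EHF+CDX1 libraries. In at least one EHF library 10 of them passed and in at least one CDX1 library 8. Replicate 2 supplied 59.2% of the counts of the EHF+CDX1 libraries, and a median of 74.6% of those in the 18 regions, against 62.9% in the other members. The part of this library's depth in these counts was not tested.

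Both members with 0 counts in each EV library lay in introns of PCAT1. One, chr8:127018739-127018889, 717 kb upstream of MYC, had 0, 0 and 1 counts with EHF, 2, 0 and 0 with CDX1 and 2, 20 and 4 with both (adjusted p = 0.11 against EV). Replicate 2 supplied 20 of the 26 counts of the double line, so no fold is given. The other, at an internal PCAT1 start (chr8:126926809-126926959), had 4, 0 and 13 counts with EHF, 2, 0 and 0 with CDX1 and 1, 7 and 5 with both, and the spread between its EHF libraries, at 24.1 ± 28.6 CPM, was larger than their mean.

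Motif letters were searched on both strands of the 26 distal members of exactly 150 bp and of all 11074 distal regions of that length. The CDX core (TTTATG or TTTATT) was in 23.1% of the members against 24.1%, the ETS core (AGGAAGT or CGGAAGT) in 7.69% against 7.405%, and the AP-1 core (TGANTCA) in 19.2% against 24.7%. The TCF core (CTTTGAT or CTTTGAA) was in 7 of the 26, or 26.9%, against 8.43%. These are descriptions of letters and not of binding. The CCDC26 region that rose in EHF+CDX1 held the CDX core and none of the other motifs. The other 3 called regions lacked the CDX core: the CCAT2 region held the TCF and AP-1 cores, and the remaining pair held none of the 4 motifs.

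The proteins that work with MYC, and some of its best-known targets, were looked up at their own gene starts. The MYC partner network (the partner MAX, the MXD and MNT repressors that compete for it, the related MLX branch, MYCN and MYCL) had 19 regions at 10 of 11 genes. In EHF+CDX1 against EV none was called and 3 had an unadjusted p under 0.05, with a median log2 fold change of 0.22 against 0.18 over all regions. The MAX start itself stood at -0.14 ± 0.36. Against EHF 1 was called, a lower region at MXI1 (chr10:110207419-110207653), with 19, 51 and 18 counts in EHF and 11, 36 and 12 in EHF+CDX1, a log2 fold change of -1.18 ± 0.37 (adjusted p = 0.047). The background of regions called lower in that comparison was 0.7%. The 1289 regions of chromosome 10 as a whole had a median of -0.45 in that comparison, against 0.09 over all regions. In EHF+CDX1 against EV their median was -0.50, against 0.18 over all regions. The 3 partner regions with an unadjusted p under 0.05 there were all at MXI1, on that chromosome.

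The list of MYC target genes had 14 regions at 9 of 12 genes, CAD, SRM and TERT being without one listed here. In EHF+CDX1 against EV 1 was called, at ODC1 (chr2:10447920-10448070), the first enzyme of polyamine synthesis, with 0, 0 and 1 counts in EV and 11, 18 and 8 in EHF+CDX1, a log2 fold change of 3.74 ± 1.13 (adjusted p = 0.047). One call in 14 regions stood against a background of 1.79% called higher. The other ODC1 region, chr2:10448687-10448837, had 0.99 ± 0.58 and an adjusted p of 0.34. The median of the list was 0.38 against 0.18 over all regions, with 11 of 14 regions above 0. Neither single-factor line had a called region of either list against EV. At an unadjusted p under 0.05 there was 1 target region for EHF and 0 for CDX1, and 0 regions of the partner network for each.

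**Figure D5:**
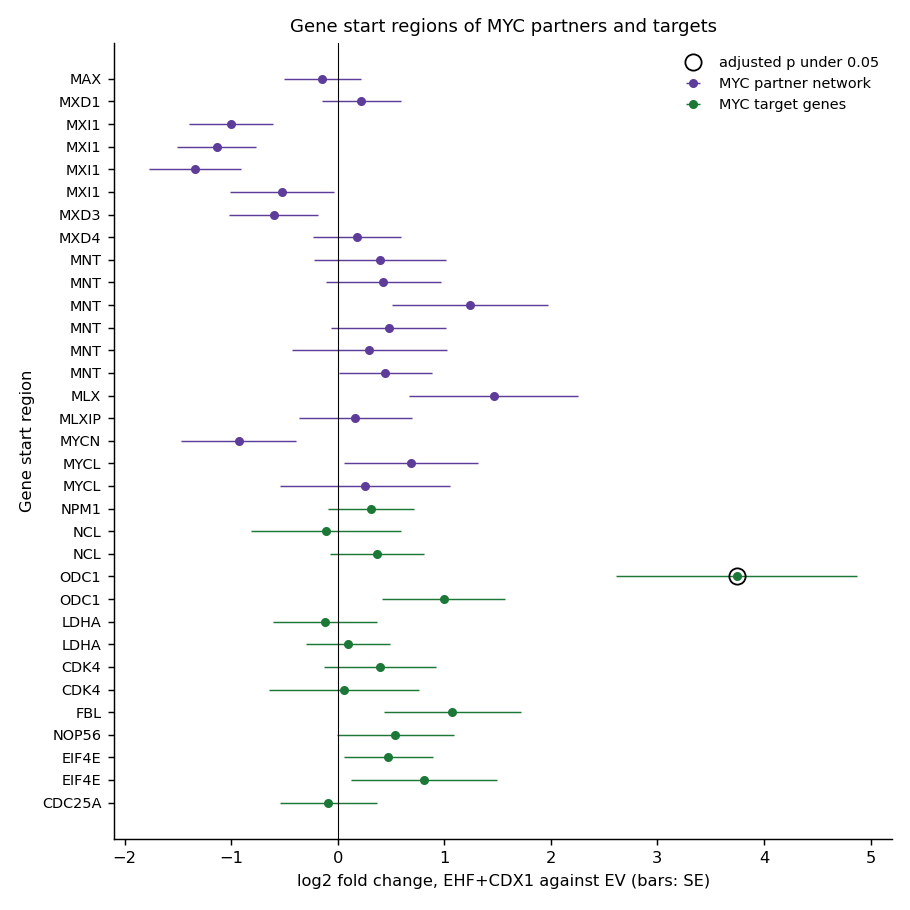
Log2 fold change with SE of EHF+CDX1 against EV for the gene start regions of the MYC partner network (purple) and MYC target genes (green), one row per region, with a ring for an adjusted p under 0.05. The ring marks an ODC1 region at 3.74, and the 4 MXI1 regions lie to the left of 0. MXI1 is on chromosome 10, whose regions had a median of -0.50 in this comparison.

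The gene starts whose profile over the 12 libraries was most like that of the MYC first-exon region were picked by Pearson correlation of log2 CPM among 1682 gene start regions with a mean of at least 20 counts. They were at KBTBD6 (0.70), SUGT1 (0.65), POLR3D with MIR320A (0.58), ATF2 (0.57) and DUX4L19 (0.55), against a median of -0.13 over all candidates. The MYC region averaged few counts a library, the points share each library's depth, and the values are a description.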

How the data were processed

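ATAC-seq of 12 HCT116 libraries was analysed, with groups and replicate numbers taken from the sample titles. The double line's title is abbreviated, and its meaning was taken from the series description. Per the submitters' processing notes and the study's methods, the authors mapped paired reads to hg38 with Subread 2.0.0, kept unique reads, called peaks per sample with HOMER 4.7, merged them into one set of regions and counted reads with featureCounts 2.0.0. The deposited counts are whole numbers of reads per region, not normalised. A second deposited table, of log2 CPM, covers 27827 regions, 53 of the 55 used here, which served as an alternative only. Duplicate removal and read shifting are not given in the sources used here, and reads carried no molecular identifiers.

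The 55 regions and all lists were chosen with earlier results of these data known. The main test was edgeR 4.0.16 in R 4.3.3 (quasi-likelihood, TMM, robust, two-sided) on the 30154 regions reaching 3 CPM in at least 1 library. All 12 libraries entered one fit with a coefficient per group, and p-values were adjusted by Benjamini-Hochberg over all regions at a threshold of 0.05. All 55 regions passed that filter. The fit was tested on simulated data. The alternatives were library-size scaling, DESeq2 1.42.0, limma 3.58.1 (voom with quantile normalisation, and on the deposited log2 values), no filter, a non-robust fit, omission of exon and mitochondrial regions, a replicate block, omission of each library and, added after the data were seen, cyclic loess. Regions matching mitochondrial DNA, 193 in all, were found by blastn 2.17.0 (at least 40 bp at 80% identity), and 11 regions overlapped EHF or CDX1 exons. Counting intervals are exact 95% intervals.

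Regions named one by one were those within 1 kb of a MYC or PVT1 start, the 5 highest by mean CPM, every region called in any of 6 comparisons, the 5 largest log2 fold changes of EHF+CDX1 against EV among regions averaging at least 10 counts, and the nearest to MYC on each side beyond 1 kb. No sequence of the regions is printed.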

Additional observations from a re-analysis of the deposited data

How the results depend on the processing

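Depth limited the values: 18 to 54 of the 55 regions were above 3 counts in a library, and EHF+CDX1 replicate 2 was the deepest. No region was called in EHF or CDX1 against EV, or for the interaction, under any alternative run. In EHF+CDX1 against EV the 2 calls became 0 with library-size scaling, DESeq2 (no adjusted p for 54 of 55 members), the deposited log2 CPM, cyclic loess (added after the data were seen) and without replicate 2 of every group, 1 with voom and quantile normalisation, and 0 to 3 when one library was left out. Against EHF the 2 calls became 1 with library-size scaling, DESeq2, voom, a non-robust fit, cyclic loess and without replicate 2 of every group, 0 with the deposited log2 CPM, and 1 to 6 when one library was left out, the 6 without EHF+CDX1 replicate 3. Against CDX1 the 2 calls became 0 with DESeq2, the deposited log2 CPM and without replicate 2 of every group, 1 with voom and cyclic loess, and 0 to 3 when one library was left out, with 0 without CDX1 replicate 2 or EHF+CDX1 replicate 2. The cause of these changes was not tested. Library-size scaling moved the median of all log2 fold changes against EV to -0.65 in CDX1, -0.50 in EHF and 0.19 in EHF+CDX1, and the deposited values moved it to -0.88, -0.68 and -0.14.

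The CCDC26 region 1.34 Mb downstream stayed called in 21 of 22 alternatives against EHF, 16 of 21 against EV and 17 of 22 against CDX1, and did not change sign. The CCAT2 region stayed called against EV in 11 of 21, the ENSG00000286034 intron against CDX1 in 14 of 22 and the other CCDC26 region against EHF in 9 of 21. Where 21 is given, DESeq2 had no adjusted p for that region. These counts include fits without a library of a group not compared, which left the compared libraries unchanged. With each library of EV and EHF+CDX1 left out in turn, the CCAT2 call was kept only without EHF+CDX1 replicate 3.

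The labels name no shared source for the replicate numbers, but same-numbered libraries carry consecutive S numbers in the titles, whose meaning is not given. In each group replicate 2 had the most counts outside exon and mitochondrial regions. The rest of the long arm of chromosome 8 held 52363, 55405, 54679 and 53524 CPM in replicate 2 of EV, EHF, CDX1 and EHF+CDX1. The other libraries held 40216 to 46230 CPM there, and the reason was not tested. Deviations of same-numbered libraries correlated at -0.01 to 0.31, over 0.1 in 5 of 18 pairs, and those of other pairs at -0.17 to 0.06. Set against each other group in turn, a library correlated best with its own number in 33 of 36 cases. For 9 of 12 libraries this held in each other group. The main fit did not include the replicate number. With a replicate block the calls over all regions rose from 776 to 1711 in EHF+CDX1 against EV, 1311 to 1796 against EHF, 783 to 1243 against CDX1, 3 to 66 for EHF alone, 0 to 6 for CDX1 alone, and 37 to 134 for the interaction. Those among the 55 numbered 4 against EV (the main 2 plus 127247468 and 128035228), 3 against EHF (129079299, 127401116 and 127586247, without 128801666) and 3 against CDX1 (the main 2 plus 127035634), and the log2 fold change at 127670940 was -0.0020.

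The summed log2 ratios to EV were sensitive to the total. With mitochondrial matches kept in the total, EHF+CDX1 gave 1.16 at gene starts and 1.16 at distal regions, EHF 0.70 and 0.67, and CDX1 0.45 at distal regions. With all counts as the total, EHF gave -0.30 and -0.29 and CDX1 -0.46 and -0.54. Within 500 kb of MYC the CDX1 gene start ratio was 0.72.

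Several uncalled log2 fold changes of EHF+CDX1 against EV changed sign. Without replicate 2 of every group they were -0.034 at 126557828, 0.010 at 127668577, -0.23 at 127736125, -0.21 at 127741828, -0.023 at 127743073, -0.52 at 127911434 and -0.24 at 128554858. With the deposited log2 CPM they were -0.20 at 126558354, -0.20 at 127670940, -0.20 at 127736125, -0.093 at 127743073, -0.38 at 127911434 and -0.043 at 128554858. With voom they were -0.61 at 127670940, -0.078 at 127741828 and -0.31 at 127911434, with library-size scaling -0.17 at 127670940, and with cyclic loess -0.037 at 127670940 and -0.33 at 128801666. With one library left out they ranged from -0.14 to 0.28 at 126558354, -0.50 to 0.60 at 127670940, -0.16 to 0.79 at 127735246, -0.52 to 0.29 at 127735796, -0.11 to 0.52 at 127736125, -0.023 to 0.53 at 127743073, -0.25 to 0.36 at 127911434 and -0.23 to 0.71 at 128554858.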
